A study of Mus musculus with 12 samples.

Results

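The genes described here are the heat shock proteins and chaperonins of naïve CD8+ T cells. They were chosen by symbol: every gene whose name starts with Hspa, Hspb, Hspd, Hspe, Hsph, Hsp90 or Dnaj, together with Tcp1, Cct2, Cct3, Cct4, Cct5, Cct6a, Cct7 and Cct8. This gave 72 of the 14323 genes counted. They comprise 11 members of the HSP70 and HSP110 family, 3 of the HSP90 family, 5 small heat shock proteins, 2 mitochondrial chaperonins, 41 J proteins (4 of class A, 11 of class B and 26 of class C) and 8 subunits of the cytosolic chaperonin CCT. The name rule also took in 2 genes that are not chaperones themselves, Hspbp1 and Hspbap1, whose products are partners of HSP70 and of a small heat shock protein.

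Splenic CD8+ T cells of 3 wild type mice were sorted on TCRβ and CD8 as CD62L+ and CD44- cells, the naïve phenotype, and were cultured for 6 h on coated plastic. In the stimulated groups the wells carried 2.5 µg/ml immobilized anti-CD3, which triggers the T cell receptor complex, and in the unstimulated groups they carried an isotype antibody in its place. Within each of these, wells also carried either 2.5 µg/ml anti-LAIR-1 (clone 2C7), an agonistic antibody against the inhibitory collagen receptor LAIR-1, or 2.5 µg/ml isotype control. The 4 groups are named below by stimulation and second antibody, for example unstimulated anti-LAIR-1 or anti-CD3 isotype, and each has 1 library from each of the same 3 mice. All groups share the wild type genotype, the sort and the culture on plastic with no other cells or co-stimulatory antibody named, so that they are a model of receptor triggering on isolated cells. The methods name adult C57BL/6N mice, or Lair1+/+ mice on that background, without saying which gave these cells. The comparisons asked what anti-CD3 did to these genes with either second antibody, and whether anti-LAIR-1 changed them with and without anti-CD3.

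Chaperones bind proteins that are not fully folded. HSP70 proteins hold short exposed stretches in a cycle driven by ATP, J proteins bring substrates to HSP70 and start that cycle, and HSP90 completes the folding of signalling proteins such as kinases and steroid receptors. CCT is a closed ring of different subunits that folds actin and tubulin, whereas the mitochondrial chaperonin is a barrel made of the Hspd1 product with a lid made of the Hspe1 product. Naïve T cells are small and quiescent, and they enlarge and raise protein synthesis after the T cell receptor is engaged. Some chaperone genes are expressed constitutively, and others, such as Hspa1a, Hspa1b, Hspb1 and Dnajb1, are classical targets of the heat shock response.

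Library totals lay between 1781218 and 7725545 counts, and the group medians were lower without anti-CD3 (2304214 with isotype and 3548881 with anti-LAIR-1) than with it (4883760 and 6204054). Levels are given as CPM, the counts scaled to a common library size, after TMM normalization over the 12 libraries, a scale on which 3 counts were worth 0.407 to 1.58 CPM. Of the marker genes for T and naïve CD8 cells, 8 of 9 were in the counts, and their summed level was 4674 to 5265 CPM in the 6 unstimulated libraries, 1677 to 1790 CPM with anti-CD3 and isotype, and 2078 to 2384 CPM with anti-CD3 and anti-LAIR-1. Markers of CD4 T cells summed to 0.276 to 4.73 CPM, those of B cells to 6.98 to 19.8 CPM (6 of 8 listed genes), myeloid markers to 0.268 to 4.21 CPM (5 of 9) and erythroid and platelet markers to at most 3.69 CPM (3 of 5). An NK list of 3 counted genes summed to 452 to 513 CPM in the 6 unstimulated libraries and 239 to 268 CPM in the 6 with anti-CD3, mostly from Klrd1 and Nkg7, which CD8+ T cells also express. With anti-CD3 and isotype Klrd1 fell (log2 fold change -2.54) and Nkg7 rose (1.91), and the part of these markers in the results below was not tested. The mitochondrial genome took 17.6% to 20.9% of counts in unstimulated libraries and 11.5% to 13.2% with anti-CD3.

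With anti-CD3 and isotype, all tested members of CCT, HSP90 and the mitochondrial chaperonin rose. So did 6 of the 8 tested of the HSP70 and HSP110 family, beside 35.3% higher and 36.1% lower over all 8690 genes tested. J proteins moved in both directions, and the small heat shock protein gene that could be tested, Hspb11, fell. All members together took 0.761% to 0.820% of counts in the 6 unstimulated libraries and 2.08% to 2.26% in the 6 libraries with anti-CD3. Their summed level was 7629 ± 401 CPM (mean ± SD, n = 3) in unstimulated isotype and 23434 ± 709.8 CPM in anti-CD3 isotype, a ratio of 3.07. The same sum was 7549 ± 313 CPM in unstimulated anti-LAIR-1 and 22238 ± 659 CPM in anti-CD3 anti-LAIR-1. These sums are shares of the RNA counted. They show a change in these genes against the rest, and do not give the amount of their RNA per cell. More cells of a type cannot be told apart from a change within cells.

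Among families, the ratio of anti-CD3 to unstimulated with isotype was highest for the mitochondrial chaperonin, at 4.50, followed by HSP70 and HSP110 at 4.09, HSP90 at 3.36 and CCT at 3.31. J proteins had smaller ratios, 1.86 for class A, 1.49 for class B and 1.37 for class C. The small heat shock proteins had a ratio of 0.388, from 30.1 ± 3.97 CPM to 11.7 ± 1.63 CPM. The plot of family sums shows the unstimulated and anti-CD3 libraries apart in every family, whichever second antibody was present.

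**Figure D1:**
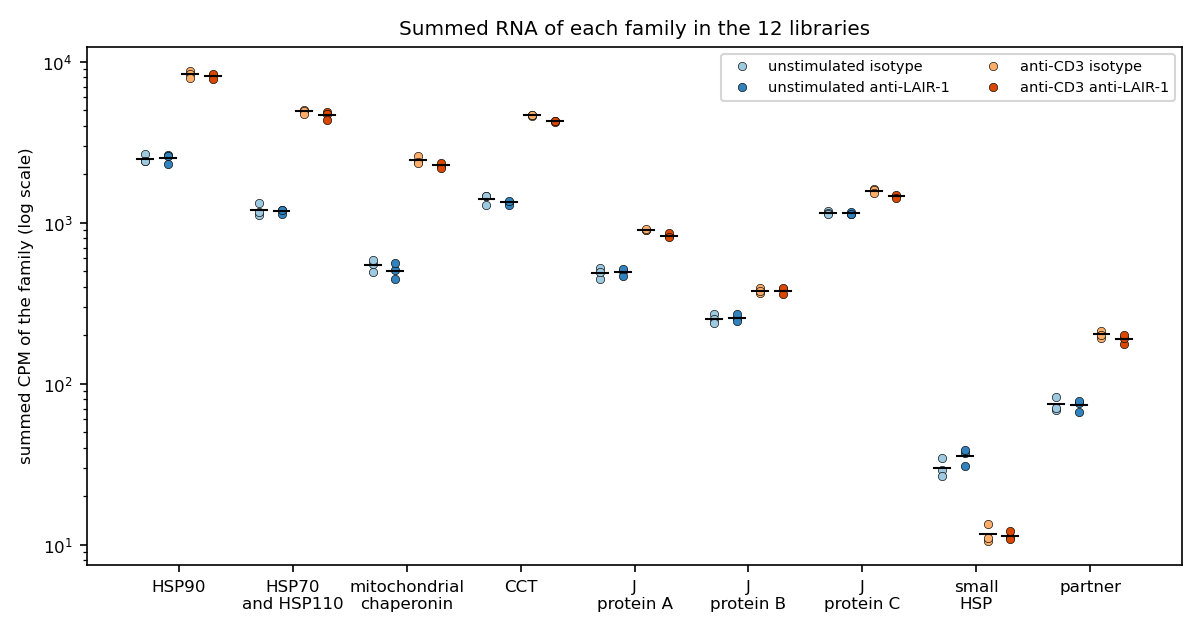
Summed CPM of each family (vertical axis, log scale) in each of the 12 libraries (points), with the mean of the 3 mice as a bar, by group. Every anti-CD3 library lies above the unstimulated libraries in all families except the small heat shock proteins, where it lies below.

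Of the 72 members, 59 had counts high enough to be tested between anti-CD3 isotype and unstimulated isotype, and 46 of them passed an adjusted p of 0.05 in edgeR's quasi-likelihood test. Anti-CD3 changed so much of the transcriptome that 71.3% of the 8690 genes tested passed in this comparison, so that the direction and size say more than the count. Of all genes, 35.3% were higher and 36.1% lower, whereas 35 of the 59 members were higher and 11 lower. The median log2 fold change was 1.25 over the tested members and -0.03 over all genes tested. Depth differed between these groups, and with every library thinned to the smallest total 43 members passed, 34 higher and 9 lower. The heat map shows each tested member in each library.

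**Figure D2:**
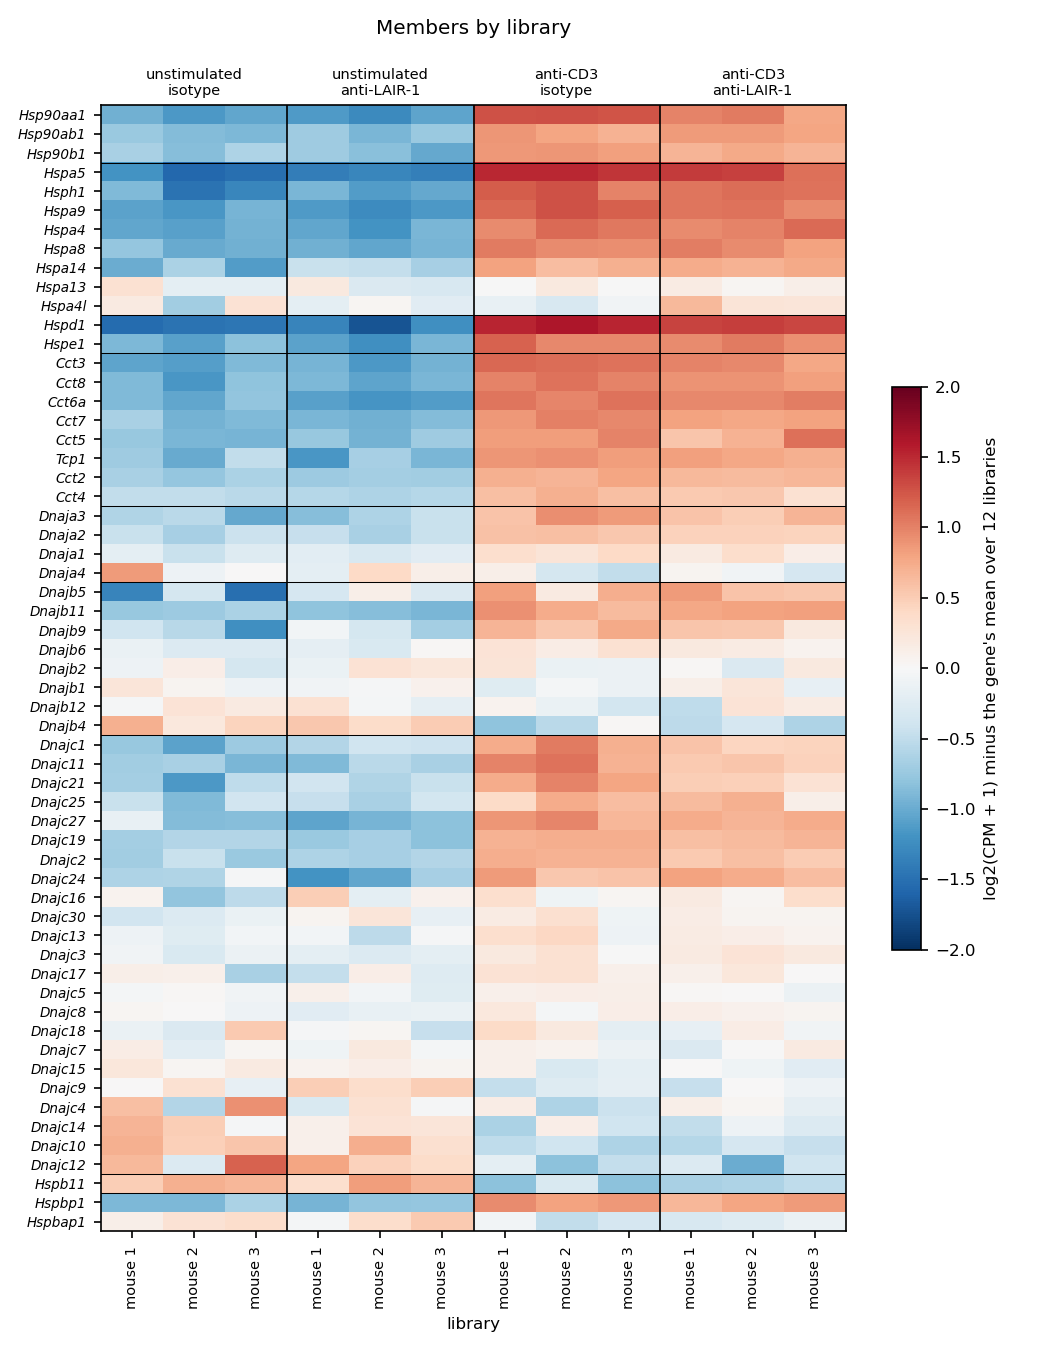
Level of each member tested with isotype (rows, ordered by family) in each of the 12 libraries (columns), as log2(CPM + 1) minus the gene's mean over all libraries. Members of the HSP90, HSP70 and chaperonin blocks, except Hspa13 and Hspa4l, are blue in the 6 unstimulated libraries and red in the 6 with anti-CD3. Class C J proteins run from strongly red to blue under anti-CD3.

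All 3 HSP90 genes rose with anti-CD3. Hsp90aa1 (chr12:110690605-110702728, minus strand, GRCm38), the inducible cytosolic HSP90, stood at 379.9, 334 and 361 CPM in the unstimulated isotype libraries of mouse 1, 2 and 3, at 339, 306 and 356 CPM in unstimulated anti-LAIR-1, at 1802, 1821 and 1778 CPM in anti-CD3 isotype and at 1484, 1519.7 and 1269 CPM in anti-CD3 anti-LAIR-1. The groups with anti-CD3 were far above those without it, and the anti-CD3 groups did not overlap each other. Its log2 fold change with isotype was 2.25 (SE 0.084, adjusted p = 1.15e-16), a fold of 4.77. Hsp90ab1 (chr17:45567775-45573271, minus strand), the constitutive cytosolic HSP90, went from 2174, 1987 and 1947 CPM to 6705, 6274 and 5874 CPM, a log2 fold change of 1.55 (SE 0.0792, adjusted p = 2.87e-14). In the libraries with anti-LAIR-1 it stood at 2210.3, 1932 and 2161 CPM without and 6527, 6579 and 6298 CPM with anti-CD3, and there the anti-CD3 groups overlapped. Hsp90b1, the HSP90 of the endoplasmic reticulum (ER), went from 104, 90.0 and 106 CPM to 298, 304 and 288 CPM (log2 fold change 1.50, SE 0.101).

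The inducible HSP90 gained on the constitutive gene. Per 100 counts of Hsp90ab1 there were 17.6 of Hsp90aa1 in unstimulated isotype (range 16.8 to 18.5) and 28.7 in anti-CD3 isotype (26.9 to 30.3). With anti-LAIR-1 the same ratio was 15.9 (15.3 to 16.5) without anti-CD3 and 22.0 (20.1 to 23.1) with it. None of these ranges overlapped another. The ratio is of use between groups only, since 23.2% of the 60-base windows in the last 500 bases of the Hsp90aa1 transcripts also occur in other annotated genes, and reads mapping equally well to several places were discarded.

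In the HSP70 and HSP110 family 8 of 11 members were tested and 6 rose with anti-CD3, beside 35.3% higher over all genes tested. The largest change was that of Hspa5 (chr2:34771970-34777547, plus strand), the HSP70 of the ER also called BiP, at 101, 78.1 and 81.5 CPM in unstimulated isotype and 666, 669 and 632 CPM in anti-CD3 isotype. It rose 7.12-fold, a log2 fold change of 2.83 (SE 0.104, adjusted p = 9.19e-17). With anti-LAIR-1 it was at 88.8, 94.0 and 90.2 CPM without and 614, 604 and 500.2 CPM with anti-CD3, and all anti-CD3 libraries stood above all unstimulated ones. Hsph1, an HSP110 that also acts as a nucleotide exchange factor, went from 99.2, 65.4 and 74.1 CPM to 427, 448 and 369 CPM (log2 fold change 2.29, SE 0.124). Hspa9, the HSP70 of the mitochondrial matrix that pulls in imported proteins, went from 55.1, 51.9 and 61.0 CPM to 261, 286 and 268 CPM (log2 fold change 2.21, SE 0.11).

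The remaining members of the family divided into cytosolic genes that rose and others that did not pass. Hspa4, a cytosolic HSP110, went from 88.6, 86.0 and 94.6 CPM to 352, 402 and 380.0 CPM, with a log2 fold change of 2.00 (SE 0.102). Hspa8, the constitutive HSP70 of the cytosol, went from 907, 771 and 799 CPM to 3196, 3012 and 2971 CPM (log2 fold change 1.81, SE 0.0825). For Hspa8 the count is uncertain, because 66.8% of the windows at the end of its transcripts occur in other annotated genes as well, none of which was among the counted genes. Hspa14, which works with the J protein of Dnajc2 on ribosomes, rose with a log2 fold change of 1.56 (SE 0.145). Hspa13, at a log2 fold change of -0.02 (adjusted p = 0.93), and Hspa4l, at -0.23 (adjusted p = 0.449), had overlapping groups and did not pass.

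The stress-inducible HSP70 genes were barely counted in any group. Hspa1b gave 5, 4 and 6 counts in unstimulated isotype, 9, 11 and 4 in unstimulated anti-LAIR-1, 9, 13 and 11 in anti-CD3 isotype and 14, 4 and 2 in anti-CD3 anti-LAIR-1. Hspa1a gave at most 4 counts in a library, and 5 of the 12 libraries had none. In CPM, Hspa1b lay at 1.07 to 3.15 without and 0.423 to 2.79 with anti-CD3, ranges that overlap. Hspb1, another classical heat shock target, had 3, 0 and 0 counts in unstimulated isotype and at most 3 in any library. Hspb1 and Hspa1a were too low to be tested anywhere, and Hspa1b was tested only between anti-LAIR-1 and isotype with anti-CD3, where it had a log2 fold change of -1.11 (adjusted p = 0.262).

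Both mitochondrial chaperonin genes rose. Hspd1 (chr1:55077835-55088243, minus strand) and Hspe1 (chr1:55088132-55091307, plus strand) lie head to head on chromosome 1, and their annotated 5′ ends overlap. Hspd1 had the highest fold change of all members, from 69.4, 72.1 and 74.1 CPM to 583, 627 and 586 CPM, which is 7.92-fold and a log2 fold change of 2.99 (SE 0.1, adjusted p = 2.04e-17). Hspe1 went from 481, 421 and 508 CPM to 2024, 1753 and 1751 CPM, a fold of 3.72 and a log2 fold change of 1.89 (SE 0.0911, adjusted p = 9.57e-15). Under anti-LAIR-1, Hspd1 went from 80.5, 60.5 and 85.7 CPM to 521, 528 and 511 CPM. Neither gene had overlapping groups in these comparisons. The barrel gene gained on the lid gene, with 15.4 counts of Hspd1 per 100 of Hspe1 in unstimulated isotype (14.4 to 17.1) and 32.7 in anti-CD3 isotype (28.8 to 35.8). Both have annotated copies that share part of their last 500 bases, 26.6% of windows for Hspd1 and 46.0% for Hspe1.

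All 8 CCT subunits rose together with anti-CD3, by log2 fold changes between 1.07 and 2.07. Their summed level was 1291 to 1455 CPM in unstimulated isotype and 4572 to 4688 CPM in anti-CD3 isotype. Cct3 went from 84.0, 81.7 and 95.2 CPM to 389.9, 383 and 374 CPM (log2 fold change 2.07, SE 0.101). Cct8 went from 273, 224 and 289 CPM to 1008, 1073 and 1004 CPM (log2 fold change 1.90, SE 0.0952). Every subunit had its 3 anti-CD3 libraries above its 3 unstimulated ones. Of all 8690 genes tested, 35.3% were higher by the test, and the share separated in this way was not computed. Cct6a followed at a log2 fold change of 1.88 (SE 0.0913), then Cct7 at 1.69, Cct5 at 1.68, Tcp1, the founding subunit, at 1.55, and Cct2 at 1.34. Cct4 had the smallest change, from 178, 177 and 170.3 CPM to 379, 408 and 376 CPM.

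Class A and class B J proteins, the partners of HSP70 in general folding, moved less uniformly. In class A, Dnaja3, which acts in mitochondria, rose with a log2 fold change of 1.43 (SE 0.142), Dnaja2 of 1.02 (SE 0.0933) and Dnaja1 of 0.55 (SE 0.0932). Dnaja4 fell, from 21.6, 10.7 and 11.6 CPM to 12.6, 8.79 and 7.93 CPM (log2 fold change -0.72, adjusted p = 0.0258), although 1 library of anti-CD3 lay within the unstimulated range. The call of Dnaja4 was lost without mouse 2 or 3 of anti-CD3 isotype, without mouse 1 of unstimulated isotype and in DESeq2, with an adjusted p of up to 0.401. Class B had 8 of 11 members tested, of which 4 rose and 2 fell, beside 35.3% higher and 36.1% lower over all genes tested.

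The class B genes that rose include the partners of BiP in the ER. Dnajb11, one of those partners, went from 42.5, 43.2 and 46.3 CPM to 136, 121 and 113 CPM (log2 fold change 1.41, SE 0.125). Dnajb9, a co-chaperone that holds the stress sensor IRE1 in check, rose with a log2 fold change of 1.31 (SE 0.231), Dnajb5 of 1.85 (SE 0.447) and Dnajb6 of 0.39 (SE 0.106). For Dnajb5 there were only 4, 9 and 2 counts in unstimulated isotype, against 30, 26 and 53 in anti-CD3 isotype. That gene passed the filter on low counts only through the group where it was high, so its call is no separate support for a rise. Dnajb4 fell with a log2 fold change of -1.02 (SE 0.328), and its adjusted p was 0.0586 without mouse 1 of unstimulated isotype. Dnajb1, the main stress-inducible J protein of the cytosol, stood at 76.0, 66.6 and 59.4 CPM in unstimulated isotype, 53.8, 61.8 and 58.5 CPM in anti-CD3 isotype, 60.6, 62.9 and 68.0 CPM in unstimulated anti-LAIR-1 and 69.5, 75.8 and 57.1 CPM in anti-CD3 anti-LAIR-1. These groups overlap. Its log2 fold change with isotype was -0.30 (adjusted p = 0.0427), but it was past the threshold in only 5 of 15 alternative settings and lost without any 1 of 5 of the 6 libraries (adjusted p of up to 0.230), and with the mouse as a replicate block its adjusted p was 0.0620.

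Class C J proteins are bound to particular places in the cell, and 23 of the 26 were tested. With anti-CD3 and isotype 8 rose and 6 fell, and the median log2 fold change of the 23 was 0.26. Of all genes tested, 35.3% were higher and 36.1% lower, so that the 8 of 23 that rose were near the share over all genes. Dnajc1, an ER membrane protein that docks BiP near ribosomes, was at 40.2, 32.1 and 41.0 CPM in unstimulated isotype, 45.2, 51.6 and 51.4 CPM in unstimulated anti-LAIR-1, 115, 142 and 113 CPM in anti-CD3 isotype and 103, 92.7 and 93.5 CPM in anti-CD3 anti-LAIR-1. No pair of these groups overlaps. Its log2 fold change with isotype was 1.64 (SE 0.137, adjusted p = 2.22e-10). Dnajc11, a protein of the mitochondrial membranes, rose with a log2 fold change of 1.63 (SE 0.151), and Dnajc19, a part of the mitochondrial import motor, rose with a log2 fold change of 1.29 (SE 0.124).

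Others of class C that rose serve ribosomes and protein synthesis. Dnajc21, a factor in the maturation of the large ribosomal subunit, went from 22.2, 15.9 and 25.2 CPM to 61.8, 73.1 and 63.6 CPM (log2 fold change 1.59, SE 0.165, adjusted p = 8.99e-09). Dnajc2, the ribosome-bound partner of Hspa14, went from 108, 128 and 105 CPM to 292, 284 and 283 CPM (log2 fold change 1.25, SE 0.104). Dnajc24, which takes part in the diphthamide modification of elongation factor 2, rose with a log2 fold change of 1.09 (SE 0.26). Dnajc25 and Dnajc27 rose as well, with log2 fold changes of 1.47 and 1.39. For Dnajc25 there were only 6, 3 and 4 counts in unstimulated isotype, against 14, 27 and 32 in anti-CD3 isotype. That gene passed the filter on low counts only through the group where it was high, so its call is no separate support for a rise. Dnajc3, the ER co-chaperone that inhibits the kinase PERK, had 52.4, 44.8 and 51.0 CPM against 63.3, 68.8 and 55.1 CPM, groups that do not overlap, and did not pass (log2 fold change 0.26, adjusted p = 0.0925).

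The class C genes that fell with isotype were Dnajc12, Dnajc10, Dnajc14, Dnajc4, Dnajc9 and Dnajc15. Dnajc10, an ER reductase that breaks disulphide bonds, went from 63.0, 53.1 and 56.3 CPM to 26.4, 28.7 and 24.6 CPM (log2 fold change -1.19, SE 0.146, adjusted p = 1.23e-07). Dnajc12 fell with a log2 fold change of -1.32 (SE 0.369) and Dnajc4 of -0.88 (SE 0.367), both with overlapping groups and at most 15.8 CPM. Dnajc9, a histone chaperone, fell with a log2 fold change of -0.44 (SE 0.129), and Dnajc15, of the mitochondrial inner membrane, with -0.36 (SE 0.114). Dnajc14 had a log2 fold change of -0.89 (adjusted p = 0.0353), which became an adjusted p of 0.0571 with the replicate block. Of the 2 partners, Hspbp1, a nucleotide exchange factor of HSP70, rose with a log2 fold change of 1.62 (SE 0.116), and Hspbap1 fell with a log2 fold change of -0.67 (SE 0.246). Single libraries decided 4 of these calls. That of Dnajc15 was lost without mouse 2 of anti-CD3 isotype (adjusted p = 0.0794). That of Dnajc4 was lost without mouse 2 or 3 of anti-CD3 isotype or mouse 1 or 3 of unstimulated isotype, that of Dnajc14 without mouse 1 or 3 of anti-CD3 isotype or mouse 1 or 2 of unstimulated isotype, and that of Hspbap1 without mouse 2 or 3 of anti-CD3 isotype or mouse 2 of unstimulated isotype. Over all settings their adjusted p reached 0.199, 0.169 and 0.0889.

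The small heat shock proteins were low throughout. Hspb11, a component of intraflagellar transport that carries the family name, fell from 21.2, 25.0 and 24.2 CPM to 7.99, 11.8 and 7.93 CPM (log2 fold change -1.41, SE 0.231, adjusted p = 9.37e-06). Hspb6 stood at 6.30, 8.72 and 2.63 CPM in unstimulated isotype, 11.6, 9.48 and 14.5 CPM in unstimulated anti-LAIR-1, 2.46, 0.858 and 2.59 CPM in anti-CD3 isotype and 1.76, 1.53 and 1.48 CPM in anti-CD3 anti-LAIR-1. Of the anti-CD3 comparisons, it was tested only in that with anti-LAIR-1, where it fell with a log2 fold change of -2.88 (SE 0.312, adjusted p = 9.87e-08). There it passed the filter on low counts only through the unstimulated libraries, where it was high. Another 12 members passed no filter in either anti-CD3 comparison: Hspa1a, Hspa1b, Hspa2, Hspb1, Hspb7, Hspb9, Dnajb3, Dnajb13, Dnajb14, Dnajc5b, Dnajc6 and Dnajc28. None of them exceeded 3.65 CPM in any library. Dnajc6, which uncoats clathrin vesicles, had 5, 2 and 2 counts in unstimulated isotype and 5, 4 and 5 in unstimulated anti-LAIR-1, and 0 counts in all 6 anti-CD3 libraries.

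**Figure D3:**
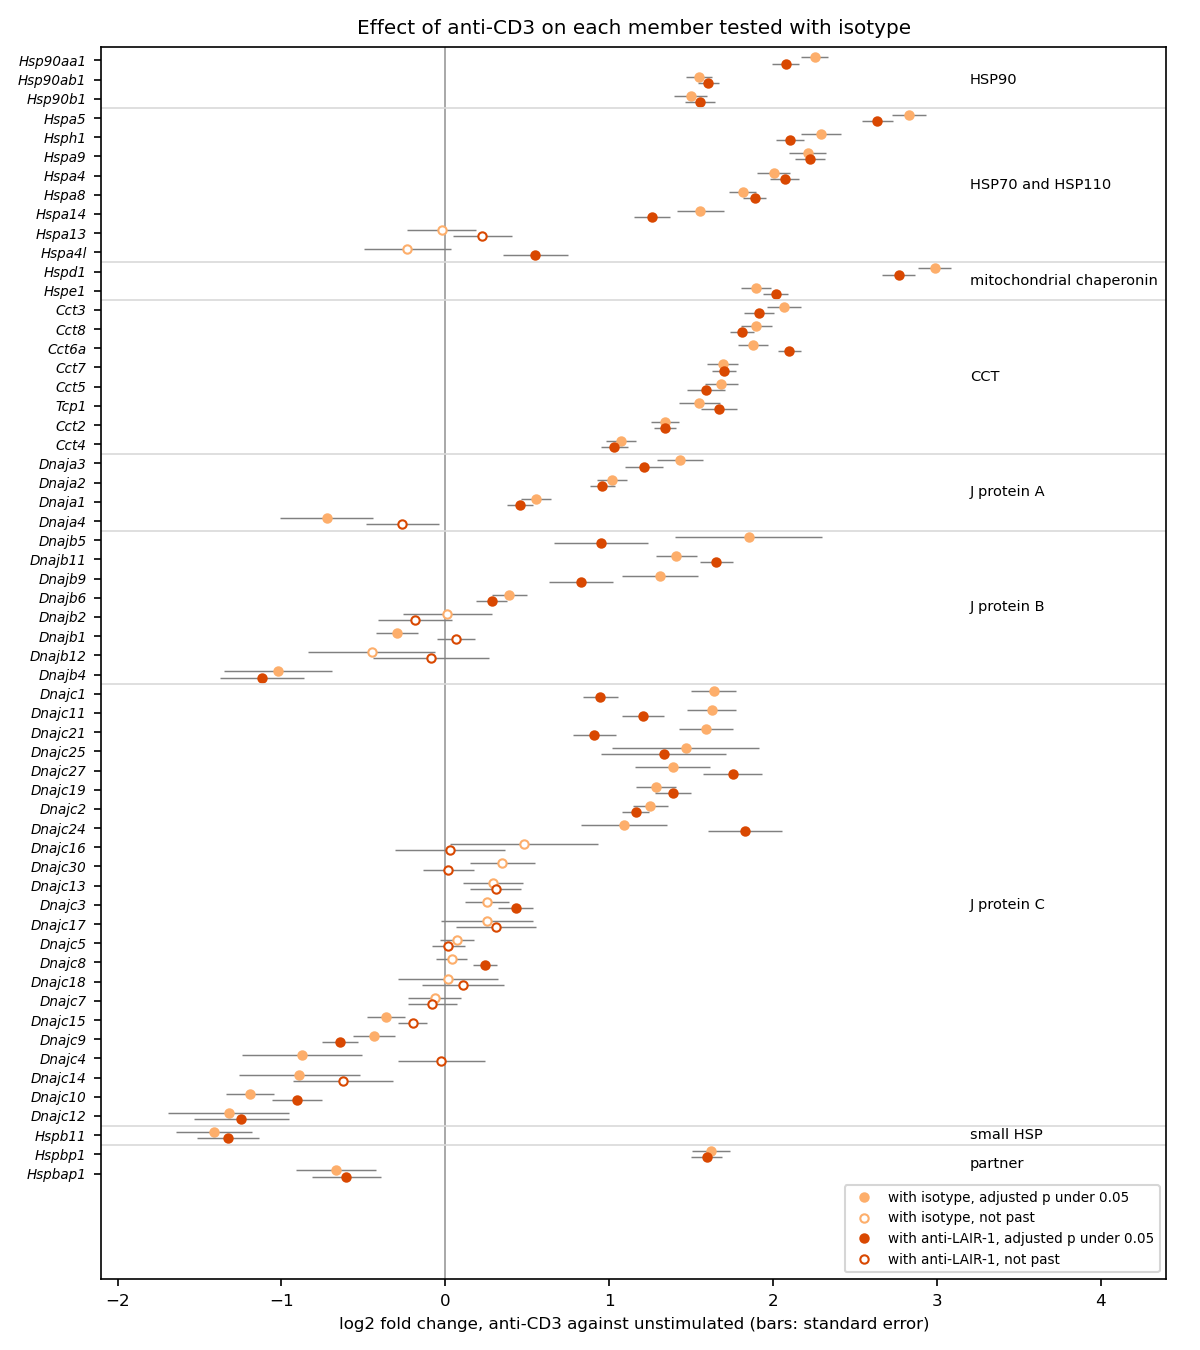
Log2 fold change of anti-CD3 against unstimulated (horizontal axis, bars show the standard error) for each of the 59 members tested with isotype, by family, with isotype (light) and with anti-LAIR-1 (dark). Filled points passed an adjusted p of 0.05. The HSP90, chaperonin and most HSP70 points lie to the right of 1, and J proteins spread over both sides of 0.

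Grouped by compartment, the members of the ER and of mitochondria both moved mostly upward. Of 8 ER members, 5 rose with isotype (Hspa5, Hsp90b1, Dnajb9, Dnajb11 and Dnajc1), Dnajc10 fell, and Hspa13 and Dnajc3 did not pass. Of 8 mitochondrial members, 6 rose (Hspd1, Hspe1, Hspa9, Dnaja3, Dnajc11 and Dnajc19), Dnajc15 fell and Dnajc30 did not pass. Their median log2 fold changes were 1.36 for the ER and 1.53 for mitochondria, against -0.03 over all genes tested. Of all those genes, 35.3% were higher and 36.1% lower.

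Genes that work with these chaperones were taken from lists of co-chaperones. Beside the counts below, 35.3% of all 8690 genes tested with isotype were higher and 36.1% lower. Of 19 HSP90 co-chaperones, all tested, 11 rose and 3 fell with isotype (median log2 fold change 0.83). Ppid had the largest log2 fold change of them, at 2.48, followed by Nudc at 1.96 and Stip1, which passes clients from HSP70 to HSP90, at 1.77. Of 13 nucleotide exchange factors and HSP70 partners, 11 were tested, 7 rose and 1 fell (median 1.28). Hyou1, the HSP110 of the ER, had a log2 fold change of 2.15, Grpel1, the exchange factor of mitochondrial HSP70, had 1.46, and Hscb, a J protein of iron and sulphur cluster assembly, had -1.31. Of 13 counted partners of CCT, 12 were tested, 6 rose and 2 fell (median 0.17). Of the prefoldin subunits among them, which hand actin and tubulin to CCT, Pfdn4 had 2.33, Pfdn2 had 1.96 and Pfdn5 had -0.74. Among 5 heat shock factors and their regulator, 3 were tested and Hsf1, the transcription factor of the heat shock response, rose with a log2 fold change of 0.64 (adjusted p = 0.00109).

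The effect of anti-CD3 under anti-LAIR-1 was measured in the other 6 libraries. There 60 members were tested and 45 passed, 38 higher and 7 lower, in a comparison in which 72.7% of 9000 genes passed, 36.4% higher and 36.3% lower. The median log2 fold change was 0.95 over the members and -0.04 over all genes. Of the members, 35 rose in both arms and 6 fell in both. Another 5 that fell with isotype did not pass here: Dnajc14, at a log2 fold change of -0.63 (adjusted p = 0.0732), Dnajc15, at -0.20 (adjusted p = 0.053), Dnaja4, at -0.26 (adjusted p = 0.295), Dnajc4, at -0.03 (adjusted p = 0.936), and Dnajb1, at 0.07 (adjusted p = 0.611). None of the 5 passed the test of the difference between the arms, with adjusted p of 0.446 (Dnajb1) to 0.905 (Dnajc14). Hspd1 had a log2 fold change of 2.77 here, Hspa5 2.64, Hspa9 2.22 and Hsph1 2.10. For CCT the log2 fold changes lay between 1.03 (Cct4) and 2.10 (Cct6a). Hspa4l, an HSP110, rose in this arm only by the test, at a log2 fold change of 0.55 (adjusted p = 0.0193), as did Dnajc3 at 0.43 (adjusted p = 0.00133) and Dnajc8 at 0.24 (adjusted p = 0.00648). In the test of the difference between the arms, the adjusted p was 0.337 for Hspa4l, 0.801 for Dnajc3 and 0.607 for Dnajc8. The call of Hspa4l was lost without mouse 1 of anti-CD3 anti-LAIR-1 or mouse 1 or 3 of unstimulated anti-LAIR-1 (adjusted p of up to 0.229 over all settings). That of Hspbap1 (log2 fold change -0.60) was lost without mouse 1 of anti-CD3 anti-LAIR-1 or mouse 3 of unstimulated anti-LAIR-1.

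Among cells with anti-CD3, anti-LAIR-1 lowered 4 members and raised none. The test covered 60 members and 8800 genes, of which 5.76% passed, 3.90% higher and 1.86% lower. The 4 members were Hsp90aa1, Dnajc21, Dnajc11 and Dnajc1, each of which had risen with anti-CD3. Hsp90aa1 stood at 1802, 1821 and 1778 CPM with isotype and 1484, 1519.7 and 1269 CPM with anti-LAIR-1. All 3 libraries with anti-LAIR-1 were lower, and the log2 fold change was -0.33 (SE 0.07, adjusted p = 0.00782), a fold of 0.793. It passed in all 15 alternative settings. Hsp90ab1, at a log2 fold change of 0.05 (adjusted p = 0.768), did not pass, nor did Hsp90b1, at -0.14 (adjusted p = 0.27).

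The other 3 are class C J proteins of different compartments, and their calls rest on fewer settings. Dnajc21 was at 61.8, 73.1 and 63.6 CPM with isotype and 51.5, 51.2 and 44.6 CPM with anti-LAIR-1 (log2 fold change -0.42, SE 0.106, adjusted p = 0.025). Dnajc11 was at 87.3, 93.7 and 70.9 CPM and 62.7, 64.3 and 60.5 CPM (log2 fold change -0.41, SE 0.107, adjusted p = 0.03). Dnajc1 was at 115, 142 and 113 CPM and 103, 92.7 and 93.5 CPM (log2 fold change -0.35, SE 0.0982, adjusted p = 0.0424). In each of the 3 genes the groups did not overlap, and all 3 mice had the lower value with anti-LAIR-1. Dnajc21 and Dnajc11 passed in 10 of 15 alternative settings and Dnajc1 in 9. Leaving out mouse 2 of anti-CD3 isotype, or mouse 2 or mouse 3 of anti-CD3 anti-LAIR-1, left Hsp90aa1 as the single member past the threshold. The end of Dnajc1 lies over that of Mllt10 on the opposite strand, and whether strand was used in counting is not given in the sources used here. Mllt10 itself had 31.2 CPM with isotype and 32.6 CPM with anti-LAIR-1 (log2 fold change 0.06, adjusted p = 0.858).

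**Figure D4:**
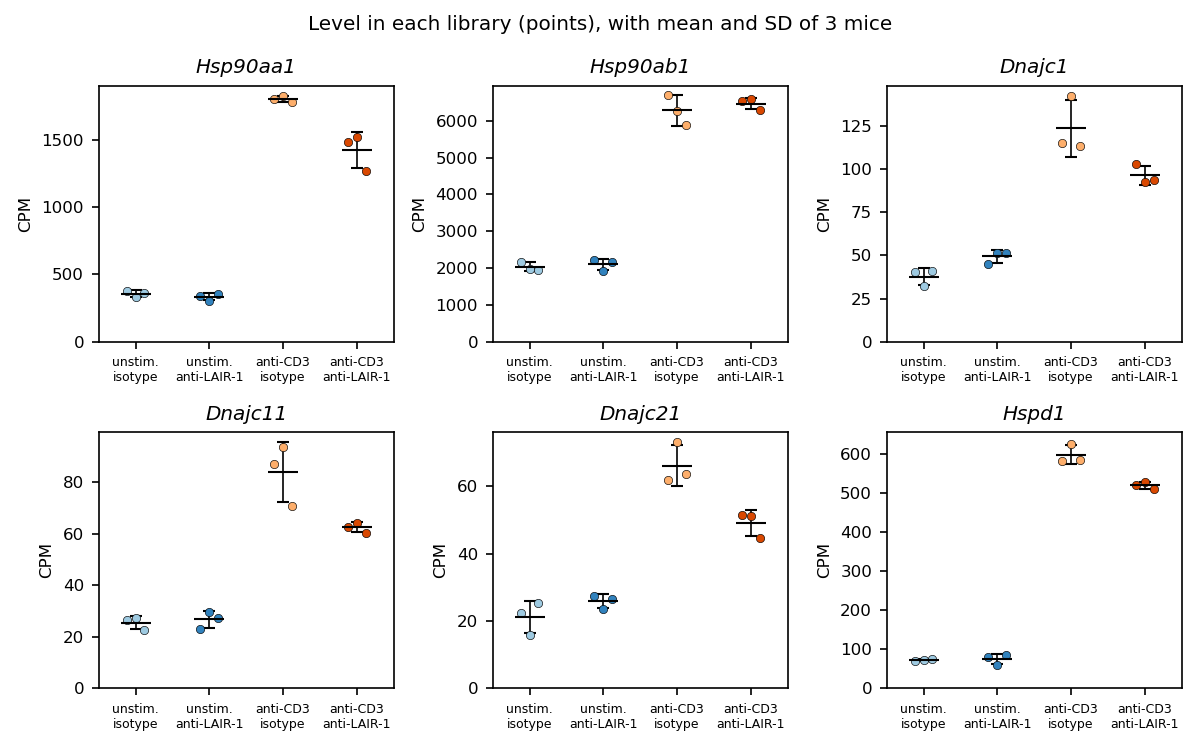
CPM (vertical axis, from 0) of the 4 members lower with anti-LAIR-1 under anti-CD3, and of Hsp90ab1 and Hspd1, in each library (points) of the 4 groups, with mean and SD of 3 mice. For Hsp90aa1 the anti-CD3 isotype libraries lie between 1778 and 1821 CPM, above all anti-CD3 anti-LAIR-1 libraries, whereas the Hsp90ab1 libraries of these groups overlap.

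Many other members were slightly lower with anti-LAIR-1 without passing. Of the 60 tested, 42 had a negative and 18 a positive log2 fold change, with a median of -0.07 against 0.00 over all genes. In 18 members all 3 anti-LAIR-1 libraries lay below all 3 isotype libraries, and in 1 they lay above. Of all genes tested, 12.1% lay below and 12.2% above by the same rule. Of the 60 members, 15 had an unadjusted p under 0.05, beside 1658 of the 8800 genes tested.

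The CCT subunits were among these members. All 8 had negative log2 fold changes, from -0.19 (Cct3) to -0.06, and none passed. In 6 of them all 3 anti-LAIR-1 libraries lay below all 3 isotype libraries, beside 12.1% of all genes tested. The summed level of CCT was 4572 to 4688 CPM with isotype and 4244 to 4269.7 CPM with anti-LAIR-1. Among members just beyond the threshold were Hspa4l, at a log2 fold change of 0.62 (adjusted p = 0.0626), Hspd1, at -0.20 (adjusted p = 0.0848), Cct3, at -0.19 (adjusted p = 0.141), Hspa5, at -0.19 (adjusted p = 0.18), and Cct8, at -0.15 (adjusted p = 0.196). Of the co-chaperone lists, the prefoldin subunit Pfdn2 alone passed, with a log2 fold change of -0.32 (adjusted p = 0.0408). Along with these values, the T and naïve CD8 markers moved in the other direction, with 5 of 8 higher under anti-LAIR-1 and none lower. Of all 8800 genes tested, 3.90% were higher and 1.86% lower. B cell markers summed to 10.5 to 12.7 CPM with isotype and 6.98 to 7.82 CPM with anti-LAIR-1, and neither of the 2 tested, Cd74 and H2-Aa, passed. The part of both lists in the result was not tested.

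Without anti-CD3, no member differed between anti-LAIR-1 and isotype by the test. None of 8770 genes passed (0%) in edgeR, nor in DESeq2, and 384 genes had an unadjusted p under 0.05. Among the 59 members tested, 5 had an unadjusted p under 0.05: Dnajc9, Hspb6, Cct6a, Dnajc1 and Hspa14. Dnajc9 was at 103, 127 and 91.0 CPM with isotype and 144, 131 and 144 CPM with anti-LAIR-1 (log2 fold change 0.36, adjusted p = 0.997). Dnajc1 was at 40.2, 32.1 and 41.0 CPM and 45.2, 51.6 and 51.4 CPM (log2 fold change 0.37, adjusted p = 0.997). These 5 were singled out after their values were seen. Hsp90aa1, the member lowest by p with anti-CD3, had a log2 fold change of -0.12 (SE 0.0893) here.

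Whether the effect of anti-LAIR-1 differed with and without anti-CD3 was tested as an interaction over all 12 libraries. Of 9223 genes, 2.07% passed, 1.82% higher and 0.249% lower, and 1 of 60 members passed. Dnajc1 had an interaction of log2 -0.72 (SE 0.173, adjusted p = 0.0239), since anti-LAIR-1 went with a log2 fold change of 0.37 without anti-CD3 and -0.35 with it. Dnajc21 had -0.71 (SE 0.212, adjusted p = 0.0851), Dnajc11 had -0.45 (SE 0.198, adjusted p = 0.336) and Hsp90aa1 had -0.20 (SE 0.113, adjusted p = 0.501). For the latter 3 genes a difference between the arms was thus not shown. In terms of anti-CD3, Dnajc1 rose with a log2 fold change of 1.64 with isotype and of 0.95 with anti-LAIR-1. The call of Dnajc1 was lost when any 1 of 6 libraries was left out, namely mouse 2 of each group, mouse 3 of unstimulated anti-LAIR-1 or mouse 3 of anti-CD3 anti-LAIR-1.

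The promoters were read to see which members carry the heat shock element, the binding motif of heat shock factors, made of alternating GAA and TTC units. Windows of 250 bases before to 50 after the start were found in RefSeq (GRCm38.p6) for 59 of the 72 members. The paired unit, GAANNTTC or TTCNNGAA on either strand, was in 18.6% of the member windows (11 of 59) and in 15.1% of all 27025 windows of the same length. The paired unit continued by a further alternating unit at the same spacing, a run of 3 units, was in 5.08% of member windows (3 of 59) and 0.529% of all windows. Every run of 3 units also holds the paired unit. The E-box CACGTG was in 11.9% against 7.24%, and the CCAAT box (CCAAT or ATTGG) in 40.7% against 37.9%. The 3 windows with the longer run belong to Hspe1 (chr1:55087898-55088197, plus strand), Hsph1 (chr5:149636287-149636586, minus strand) and Dnajb6 (chr5:29735648-29735947, plus strand), and that of Hspa1b (chr17:34959189-34959488, minus strand), with the paired unit alone, is shown beside them because the gene is a classical heat shock target that was scarcely counted here. Capitals mark the matches to either motif, and each sequence runs 5′ to 3′ on the strand of its gene.
Hspe1: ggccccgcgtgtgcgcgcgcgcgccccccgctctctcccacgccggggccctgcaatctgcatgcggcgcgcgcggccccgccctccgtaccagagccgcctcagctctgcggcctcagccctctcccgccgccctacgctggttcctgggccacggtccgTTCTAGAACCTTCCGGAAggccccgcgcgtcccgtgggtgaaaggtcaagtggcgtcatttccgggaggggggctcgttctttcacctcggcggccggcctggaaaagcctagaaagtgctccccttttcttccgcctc
Hsph1: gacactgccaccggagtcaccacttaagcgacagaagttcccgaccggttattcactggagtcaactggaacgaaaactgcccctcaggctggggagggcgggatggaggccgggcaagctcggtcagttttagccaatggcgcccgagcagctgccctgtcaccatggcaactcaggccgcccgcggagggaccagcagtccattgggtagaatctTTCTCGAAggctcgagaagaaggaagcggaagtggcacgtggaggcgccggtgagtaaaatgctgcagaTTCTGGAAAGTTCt
Dnajb6: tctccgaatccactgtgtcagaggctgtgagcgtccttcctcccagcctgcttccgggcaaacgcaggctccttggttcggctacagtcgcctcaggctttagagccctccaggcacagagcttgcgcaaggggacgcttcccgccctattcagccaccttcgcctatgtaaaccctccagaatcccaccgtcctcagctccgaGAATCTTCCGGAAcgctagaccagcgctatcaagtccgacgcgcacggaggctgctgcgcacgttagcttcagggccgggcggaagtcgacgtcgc
Hspa1b: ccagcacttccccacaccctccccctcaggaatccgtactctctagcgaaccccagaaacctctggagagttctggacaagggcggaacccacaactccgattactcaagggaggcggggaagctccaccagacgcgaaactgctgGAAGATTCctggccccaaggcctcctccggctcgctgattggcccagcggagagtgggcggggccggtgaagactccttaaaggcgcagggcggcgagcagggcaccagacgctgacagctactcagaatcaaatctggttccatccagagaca

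Each of the 3 genes with the longer run rose with anti-CD3 in both arms. Of the 59 members tested with isotype 35 rose, beside 35.3% of all genes tested. A link between the motif and the rise was not tested. With isotype, the log2 fold change was 1.89 for Hspe1, 2.29 for Hsph1 and 0.39 for Dnajb6. With anti-LAIR-1 the values were 2.02, 2.10 and 0.28 in the same order. A match is a description of the letters in this window, and binding was not measured. Of the other classical heat shock targets named above, Hspb1 had 2 paired units, Hspa1a had 1, and Dnajb1 had neither motif. Only the first listed window of each gene was read, whereas 2 are listed for Dnajb1, Hsph1 and Dnajb6. Members without a window in the table include Hsp90aa1, Hsp90ab1, Hspa8 and Dnajc11.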

How the data were processed

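Libraries of naïve CD8+ T cells were made with an adapted form of CEL-seq, which reads the 3′ end of transcripts. The authors used BWA MEM to place read 2 on the mouse transcriptome (mm10), dropped reads with several equally good places and deposited raw counts per gene. Collapsing of molecular identifiers and use of strand are not given in the sources used here, so that counting floors cover counting error only.

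Counts were tested with edgeR 4.0.16 (R 4.3.3): TMM, filterByExpr, the quasi-likelihood F-test on the 6 libraries of each comparison or all 12 for the interaction, with p-values adjusted by Benjamini-Hochberg over every gene tested (threshold 0.05). The study used DESeq2, here an alternative (1.42.0). With 3 libraries a group, an exact permutation test cannot go below p = 0.1 and was not used. P-values rest on the spread between the 3 libraries within each group. Standard errors (SE) were calculated back from the test, as the size of the log2 fold change divided by the square root of its F value. The main fit treated libraries as independent, although the same 3 mice gave every group, and the replicate block was an alternative. The mouse numbers pair the libraries, since cells of each mouse were divided over the groups. Deviations from the group mean correlated at a mean r of 0.0450 within and -0.0225 between mice. Because the 3 libraries of a group were centred on their mean, the second value largely follows from the first and adds no separate evidence. Replicates differed by more than sampling noise.

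The members and lists were chosen with earlier results of these data known. Genes named were a list of 30 members, those past the threshold with anti-LAIR-1 or in the interaction, the 10 highest and 10 lowest with anti-CD3, and the 5 nearest beyond the threshold; others were named after their values were seen. Scripts were tested on simulated data. All 72 symbols matched GENCODE M21 (GRCm38). Alternatives were another normalization, no or another filter, DESeq2, the replicate block, 1 fit of all libraries, thinning, leaving out each library, and, chosen after seeing the data, leaving out mitochondrial genes and Rn45s. Protein sequences were not used here.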

Additional observations from a re-analysis of the deposited data

Results flagged for a closer look

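The effect of anti-LAIR-1 on Dnajc1 depended on whether anti-CD3 was present by the test of the difference itself, an interaction of -0.72 (SE 0.173, adjusted p = 0.0239) in edgeR on the log2 scale. Dnajc1 was the 1 member of 60 that passed, beside 2.07% of 9223 genes. The level was 40.2, 32.1 and 41.0 CPM in unstimulated isotype and 45.2, 51.6 and 51.4 CPM in unstimulated anti-LAIR-1. There anti-LAIR-1 was higher but did not pass by itself (edgeR, adjusted p = 0.997). With anti-CD3 it was 115, 142 and 113 CPM with isotype and 103, 92.7 and 93.5 CPM with anti-LAIR-1, where anti-LAIR-1 was lower. The sign of the difference was the same in all 3 mice. Of 20 alternative settings, 14 kept it past the threshold, and the other 6 were among the 12 that each left out 1 library.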

How the results depend on the processing

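The number of members past the threshold with anti-CD3 and isotype was 41 to 47 over the alternative settings and 41 to 46 when each library was left out, against 46. In the anti-LAIR-1 arm the same count was 39 to 48 and 44 to 45, against 45. For anti-LAIR-1 with anti-CD3 the 4 members became 2 with all 12 libraries in 1 fit and 2 with libraries thinned to the smallest total, and 5 with no filter on low counts, where Hspa4l also passed (adjusted p = 0.0373). Leaving out a library gave 1 to 4, with 1 left without mouse 2 of anti-CD3 isotype or without mouse 2 or 3 of anti-CD3 anti-LAIR-1. Without anti-CD3 no member passed in any setting, although 5 genes in all did so with no filter on low counts. The interaction count of 1 was 0 to 2 when libraries were left out and 1 in the other settings. With the replicate block, which pairs libraries by mouse, 44, 45, 4, 0 and 1 members passed in the 5 comparisons; the calls it ended were those of Dnajb1 and Dnajc14 with anti-CD3 and isotype, and it changed no other call. Scaling by library totals alone moved the median log2 fold change of all genes with anti-CD3 and anti-LAIR-1 from -0.04 to -0.15, and that of the members from 0.95 to 0.84. No called value changed sign. Low counts limited the 12 untested members, and the cause of each lost call was not tested.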
